A study of Rattus norvegicus with 98 samples.

Results

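A set of 1157 windows of the rat genome carried H3K27ac peaks in most telencephalic punches and in few or none from the midbrain and hindbrain. The windows are 1 kb long, lie on chromosomes 1 to 20 of the Rn5 build, and were chosen by their occupancy, a window being occupied in a library when peaks covered 500 bp or more of it. A member had to be occupied in 75% or more of the 44 libraries of 11 telencephalic regions, that is in at least 33, and in 10% or less of the 20 libraries of 5 brainstem regions, that is in at most 2. Of 292741 windows occupied in 1 or more of the 94 libraries, 36989 met the telencephalic limit. Members made up 3.13% of these, whereas 86.3% (31927 windows) were also occupied in 75% or more of the brainstem libraries and are called shared windows here. The contrast between telencephalon and brainstem was thus selected on and is given as a description, with no test.

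The telencephalic regions were the prelimbic (PLC), infralimbic (ILC), cingulate (CGC) and insular (InsularCortex) cortex, the shell and core of the nucleus accumbens (NaCshell, NaCcore), the lateral septum (LS), the basolateral and centromedial amygdala (BLA, CMA), and the dorsal and ventral dentate gyrus (dorDG, venDG). The brainstem regions were the ventral tegmental area (VTA), the periaqueductal grey (PAG), the raphe, the locus coeruleus (LC) and the nucleus of the solitary tract (Snt). The animals were male Long-Evans rats, 2 months old at the start, given fluoxetine at 18 mg/kg per day in the drinking water for 6 weeks (FT) or water alone (Sham). Each replicate was a pool of punches from several animals, and the same 2 Sham and 2 FT pools gave all regions, so every p-value below bears on these 4 pools and not on single animals. Punches hold mixed neurons and glia, and a weaker peak can come from fewer cells with the mark or from less of the mark per cell, which cannot be told apart here.

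H3K27ac is an acetylated lysine of histone H3 that marks active promoters and enhancers. Promoters used by most cells carry it throughout the brain, whereas distal enhancers are often acetylated only in the lineages that use them. The cortex, striatum, septum, amygdala and hippocampus all develop from the telencephalic vesicles, while the midbrain and hindbrain come from more caudal parts of the neural tube, so regions of one origin can share elements that the others lack.

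The lists held 19378 to 54505 peaks, and the sequencing depth behind them is unknown. FT lists were mostly the longer ones, and 3 short Sham telencephalic libraries (PLC 2, ILC 2 and LS 2, chosen after their values were seen) had the fewest members. They were not the 3 shortest telencephalic lists. FT NaCshell 1, with 24429 peaks, was shorter than Sham LS 2, with 26223. It had 78.2% of members occupied and was kept where the 3 were left out. The single Sham library of the habenula (HB) stood apart: it covered 0.326% of the shared windows, against 40.2% or more in every other library. Both HB libraries were left out of the rule and of the comparisons below. Where list length could matter, values are also given on equal-size lists, the 19378 best-scoring peaks of each library.

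Among the members, occupancy ran from the limit to complete. At the telencephalic limit, 154 members were occupied in 33 libraries, and 23 were occupied in all 44. Of the 1157, 679 had no peak in any brainstem library, 218 had a peak in 1 and 260 in 2. Full separation, 44 of 44 against 0 of 20, was held by 15 windows. Just inside the limits lay the windows at chr1:23681001-23682000 (33 telencephalic and 0 brainstem libraries) and chr1:48003001-48004000 (34 and 2). Just outside lay chr1:45749001-45750000 (32 and 0) and chr1:14928001-14929000 (33 and 3). There were 194 windows with 32 telencephalic and at most 2 brainstem libraries and 179 telencephalon-wide windows with 3 brainstem libraries, so both limits cut through a continuous distribution.

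The share of members occupied differed between telencephalic regions even within the rule. In InsularCortex it was 98.3% and 99.3% in Sham and 97.6% and 98.6% in FT. LS had the lowest mean of the 11 regions (64.1% ± 27.2, SD, n = 4 libraries), with 65.5% and 25.2% in Sham and 82.8% in one and 82.9% in the other FT library. The lowest single library was Sham ILC 2 at 22.9%, and Sham PLC 2 had 26.3%, while the FT libraries of both regions had 98.6% to 99.5%. LS also missed the most members altogether: 100 were empty in all 4 of its libraries, against 55 in dorDG, 23 in NaCcore and 10 or fewer in each other region. In all, 960 members were occupied in 1 or more library of each of the 11 regions.

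The brainstem peaks that the rule allowed were mostly VTA peaks. VTA gave 440 of the 738 occupied pairs of a member and a brainstem library, and 415 of these were from FT. Members were occupied at 1.73% and 0.432% in the Sham VTA libraries and at 16.5% and 19.4% in the FT ones. In PAG, raphe, LC and Snt no library exceeded 3.46%. On equal-size lists the FT VTA libraries fell to 1.47% and 1.9%, beside 0.173% and 0.0% in the Sham ones. Most FT VTA peaks over members thus lay below the equal-size cut, while FT stayed above Sham.

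**Figure D1:**
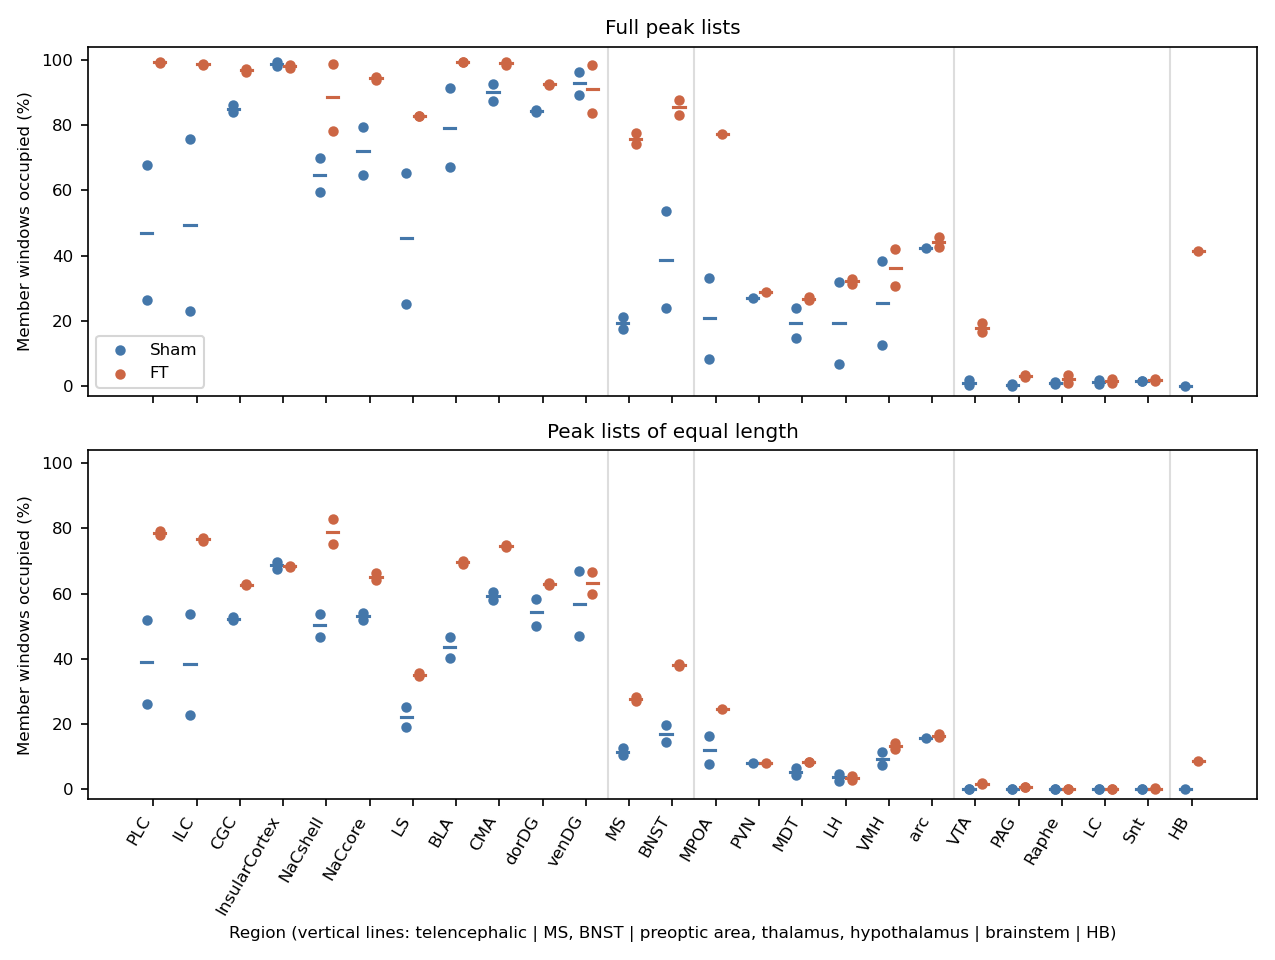
Percentage of the 1157 member windows occupied in each library (points; Sham blue, FT orange) by region, with the mean of each treatment as a short line, on full lists (top) and equal-size lists (bottom). Telencephalic and brainstem libraries chose the windows; MS, BNST, MPOA, PVN, MDT, LH, VMH and arc did not, and there the FT libraries of MS (77.7% and 74.1%), BNST (87.8% and 83.2%) and MPOA (77.2%) stand highest on full lists.

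Strength of acetylation was read as a rank level, 100 for the best-scoring peak of a list and 0 where no peak covered the window. Where occupied, members had a median level of 65.3 ± 9.995 (mean of library medians ± SD, n = 44 telencephalic libraries), and shared windows one of 79.0 ± 2.94. In the brainstem the few occupied members had 19.0 ± 6.44 (n = 20 libraries), while shared windows had 78.3 ± 4.12. The median level of members was below that of shared windows in 43 of the 44 telencephalic libraries. FT NaCshell 2 was the exception, with 82.0 against 79.9, and in the FT dorDG libraries the medians were close (76.6 against 77.4 and 77.6 against 77.9). The brainstem peaks over members stood low in their lists.

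In form the peaks over members were ordinary. Their median width was 2000 bp (quartiles 1600 and 2300), the same median as over shared windows (quartiles 1700 and 2300). The peak centre lay inside the window in 64.3% of occupied pairs of a member and a telencephalic library and in 62.9% of such pairs of a shared window. The members formed 981 loci of adjoining windows, of which 814 were 1 window, 158 were 2 and 9 were 3 windows long. Most were not shoulders of a shared site: 908 lay in a stretch of telencephalon-wide windows made of members alone, and 815 were over 10 kb from the nearest window occupied in 75% or more of the brainstem libraries. The median distance to such a window was 26 kb (quartiles 8 and 76), and 90 members adjoined one.

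Members were spread over all 20 chromosomes, from 1.93% of the telencephalon-wide windows on chromosome 19 to 4.87% on chromosome 16. Within chromosomes they were unevenly spread, but whether more so than the telencephalon-wide windows was not tested. They fell in 587 of the 2217 bins of 1 Mb with a telencephalon-wide window. Of the bins with a member, 38 had 5 or more and held 256 of them, adjoining windows being counted separately. The 2 clusters described next were chosen after seeing these counts.

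The bin chr17:76000001-77000000 held the most members, 15 of its 26 telencephalon-wide windows. They lay scattered over chr17:76086001-76869000, and 7 shared windows stood in the same bin. In chr6:79000001-80000000 the picture was sharper, since all 10 telencephalon-wide windows were members and none was shared. These 10 lay within 27 kb, at chr6:79524001-79551000. They were occupied in 37 to 44 of 44 telencephalic and in 0 of 20 brainstem libraries, at median telencephalic levels of 78.2 to 98.9, where occupied members at large had 65.3. In the medial preoptic area 2 or 3 of the 3 libraries were occupied at each window, whereas 9 of the 10 windows had no peak in any of the 4 mediodorsal thalamus libraries.

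**Figure D2:**
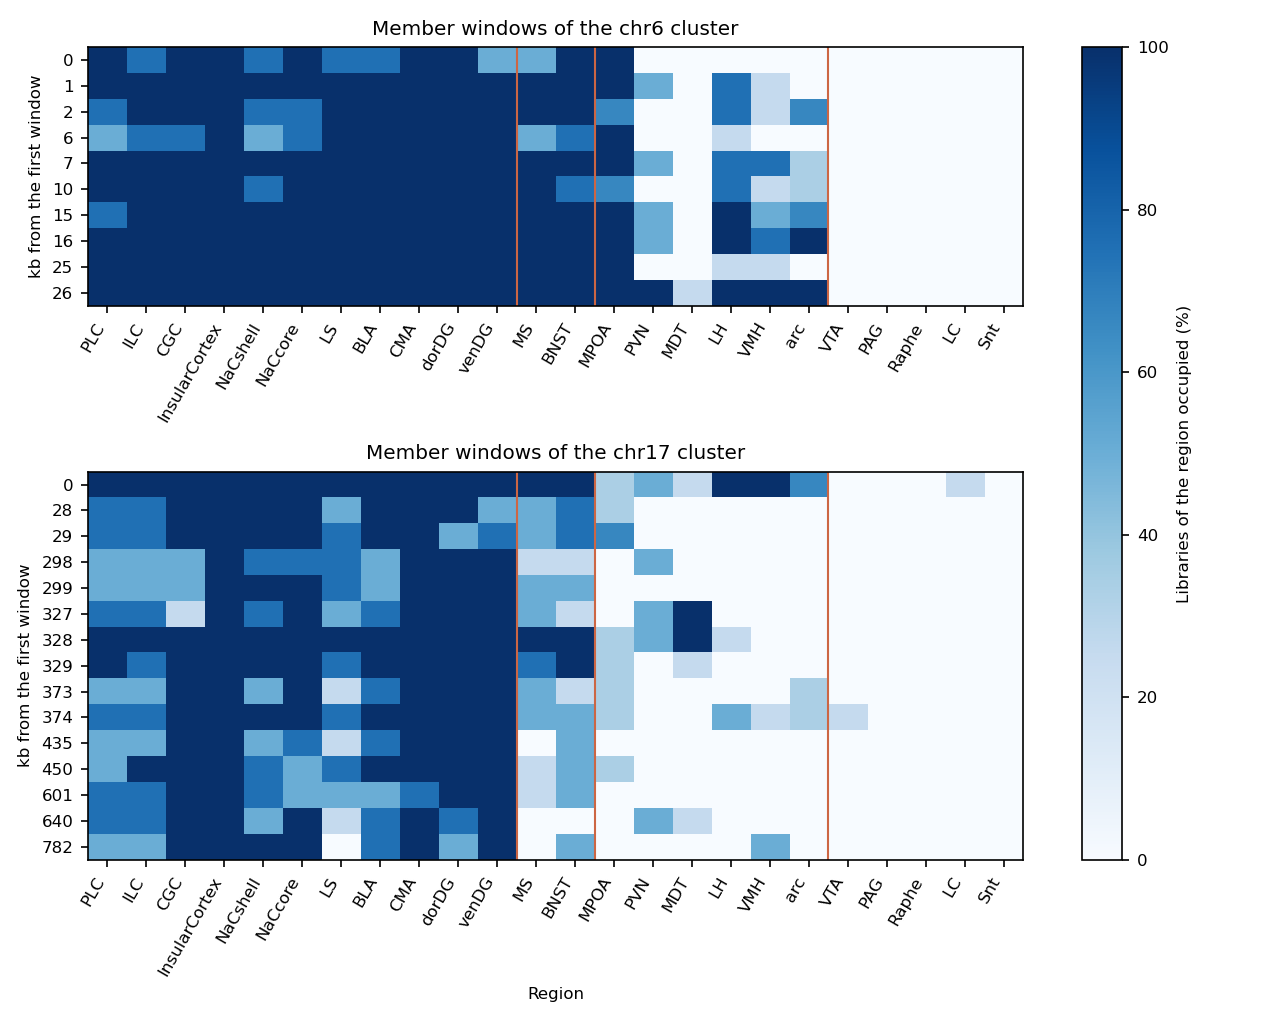
Percentage of the libraries of each region (columns) occupied at each member window (rows, labelled by distance in kb from the first) of the chr6 cluster (10 windows, top) and the chr17 cluster (15 windows, bottom). Orange lines part the telencephalic regions, MS and BNST, the diencephalic regions with MPOA, and the brainstem, where 0 of 20 libraries are occupied at any chr6 window.

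The 8 largest loci were all 3 windows long. At chr1:231806001-231809000 the windows were occupied in a mean of 41 telencephalic and 0 brainstem libraries, and the dentate gyrus libraries had mean levels over the locus of 90.8 to 99.2 (median 97.1). Lateral septum libraries at the same locus had levels of 6.94 to 73.8 (median 62.7). The locus chr6:79524001-79527000, in the chr6 cluster, was strong throughout, with medians of 92.2 to 95.7 over the 5 subdivisions. The locus chr17:76413001-76416000 resembled the first, with medians of 98.4 in the dentate gyrus and 60.1 in the lateral septum.

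At chr11:72828001-72831000 the dentate gyrus had levels of 90.4 to 99.3 (median 97.9), against medians of 88.1 in neocortex, 76.2 in amygdala, 60.8 in accumbens and 41.7 in lateral septum. At chr8:22106001-22109000 the neocortex was the highest subdivision, with a median of 96.9, and the lateral septum the lowest, with 67.9. The remaining loci, chr1:227265001-227268000, chr1:227358001-227361000 and chr20:50346001-50349000, had their highest medians in the dentate gyrus (91.1 to 97.1) and their lowest in the lateral septum (46.3 to 56.4). Thus the highest median was in the dentate gyrus at 6 loci and in the neocortex at 2, and the lowest was in the lateral septum at all but the chr6 locus.

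Regions that took no part in the selection show how far the pattern extends. MS (medial septum) and BNST (bed nucleus of the stria terminalis), with 8 libraries, are telencephalic by position. The other group had 20 libraries of MPOA (medial preoptic area), PVN (the paraventricular nucleus of the thalamus in the study's list), MDT (mediodorsal thalamus), LH (lateral hypothalamus), VMH (ventromedial hypothalamus) and arc (arcuate nucleus), and is called diencephalic here although the preoptic area is a border region. The question asked was whether members are occupied more often in MS and BNST than in the diencephalic libraries.

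MS was occupied at 21.3% and 17.4% of members in Sham and 77.7% and 74.1% in FT. BNST was occupied at 53.6% and 24% in Sham and 87.8% and 83.2% in FT. In MPOA the values were 33.2% and 8.3% in Sham and 77.2% in the single FT library. On full lists FT libraries of these septal and preoptic regions thus held most of the members, and the Sham libraries held a minority in all but one. On equal-size lists the FT libraries held a minority too, 27.1% and 28.3% in MS, 37.9% and 38.3% in BNST and 24.7% in MPOA. The Sham libraries then held 10.5% and 12.6% in MS, 14.4% and 19.8% in BNST, and 7.61% and 16.3% in MPOA.

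MDT was occupied at 24.1% and 14.8% in Sham and 26.3% and 27.4% in FT, and PVN at 27.1% in Sham and 28.9% in FT. LH ran from 6.91% to 33%, VMH from 12.7% to 42.0% and arc from 42.4% to 45.7%. Per treatment, the 4 Sham MS and BNST libraries (17.4% to 53.6%) overlapped the 10 Sham diencephalic libraries (6.91% to 42.4%), and the 4 FT ones (74.1% to 87.8%) overlapped the 10 FT diencephalic libraries (26.3% to 77.2%) only through MPOA. On equal-size lists MS and BNST had 10.5% to 38.3% and the diencephalic libraries 2.68% to 24.7%, with LH lowest (2.68% to 4.75%) and MPOA highest. The brainstem range on the same lists was 0% to 1.9%, but the rule holds it low, so nothing is read from the gap to it.

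Per window, 948 of the 1157 members were occupied in a larger share of MS and BNST than of diencephalic libraries, 36 in an equal share and 173 in a smaller one. For the test, 1056 members could be used, since 89 were occupied in under 3 of the 28 libraries and 12 in over 25. Among them the median difference in share was 0.275 (quartiles 0.1 and 0.425), against -0.1 (quartiles -0.2 and 0.075) over all 94742 windows tested. A two-sided Fisher's exact test per window, adjusted by Benjamini-Hochberg over all windows tested, called 0.0% of windows in either direction, and the smallest adjusted p of a member was 0.0914 (unadjusted 6.76e-06). At an unadjusted p under 0.05, 288 of the 1056 members (27.3%) were higher in MS and BNST, beside 3.02% of all windows tested, and 4 were lower (0.379%), beside 4.78%.

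**Figure D3:**
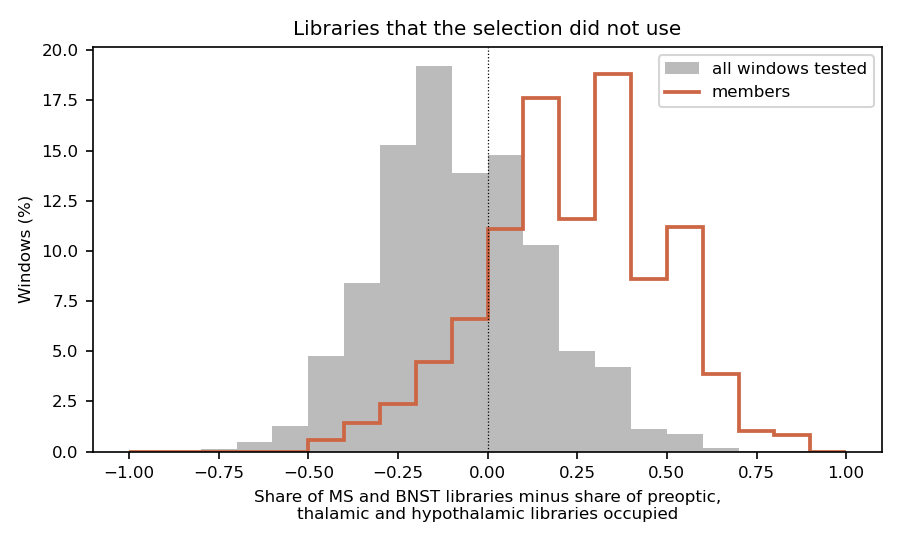
Distribution over windows of the share of MS and BNST libraries occupied (8 libraries) minus the share of MPOA, PVN, MDT, LH, VMH and arc libraries occupied (20 libraries), for the 1056 members tested (orange line) and all 94742 windows tested (grey), in bins of 0.1 as percentages of each set. Of the members 83.0% lie above 0, and of all windows 34.2%.

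On equal-size lists the same test called 15 of 508 members higher (2.95%), beside 0.0988% of the 45545 windows tested, and none lower (48 windows in all, at an unadjusted p under 0.05 1 member). The called windows included chr1:227265001-227266000 and chr17:76086001-76087000, each occupied in 8 of 8 MS and BNST and 0 of 20 diencephalic equal-size libraries (adjusted p = 0.00293, Fisher's exact test). Next came chr6:79526001-79527000, with 8 of 8 and 2 of 20 (adjusted p = 0.0244, Fisher's exact test). The adjoining pair chr19:10441001-10442000 and chr19:10442001-10443000 followed, each with 7 of 8 and 1 of 20 (adjusted p = 0.0356, Fisher's exact test). In all, 5 of the 15 belonged to the chr6 cluster. On full lists the first 2 of these windows were also occupied in 9 and 13 diencephalic libraries, so much of the difference there lay in the rank of the peaks and not in whether a peak was called.

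The unadjusted count fell when an FT pool was left out, for members and for all windows. It was 130 of 900 members (14.4%) without FT replicate 1 and 130 of 983 (13.2%) without FT replicate 2, beside 1.07% and 1.32% of all windows. Without Sham replicate 1 it was 277 of 1036 (26.7%), beside 3.06%, and without Sham replicate 2 it was 303 of 1007 (30.1%), beside 3.66%. MS alone gave 55 of 922 members (5.97%), beside 0.382% of all windows, and BNST alone 215 of 1000 (21.5%), beside 3.69%. Leaving out MPOA gave 11 of 1025 members called higher at the adjusted threshold, beside 0.0226% of all windows.

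Within the diencephalic libraries the members were divided. A median member was occupied in 5 of the 20, 123 in none, 367 in 10% or less and 96 in 75% or more. Of the 1056 members tested above, 61 (5.78%) were empty in all 4 MDT libraries and occupied in 9 or more of the 11 LH, VMH and arc libraries, beside 1.2% of all windows tested. The reverse, a peak in all 4 MDT libraries and in 2 or fewer of those 11, was found at 29 (2.75%), beside 2.85%. Neither count was tested. Adjoining windows of the latter kind lay in the chr17 cluster. There chr17:76413001-76414000 was occupied in 4 of 4 MDT, 0 of 4 LH, 0 of 4 VMH and 0 of 3 arc libraries. Its neighbour chr17:76414001-76415000 was occupied in 4 of 4 MDT, 1 of 4 LH, 0 of 4 VMH and 0 of 3 arc libraries.

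Whether the members differ among the 5 telencephalic subdivisions was asked next, since the rule does not contrast them. It does bear on which of them can be low: a member may lack a peak in up to 11 of the 44 libraries, which can take in all 4 of the lateral septum or all 8 of the accumbens, amygdala or dentate gyrus but not all 16 of the neocortex. The windows the members are set beside met the same telencephalic limit. Each subdivision was compared with the mean of the other 4 by limma on the rank level over the 36989 telencephalon-wide windows, with Benjamini-Hochberg adjustment and a threshold of 0.05. Of the members, 793 (68.5%) were called in 1 or more subdivisions, beside 50.6% of all windows tested. On full lists 59.0% of members had their lowest subdivision mean in the lateral septum and 39.1% their highest in the dentate gyrus, against 19.4% and 25% of the other telencephalon-wide windows.

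In the lateral septum 367 of 1157 members (31.7%) were lower than elsewhere, beside 5.34% of all windows tested, and 16 (1.38%) were higher, beside 1.6%. The median difference was -26.1 points over members and 0.47 over all windows. The lateral septum has 1 region and 4 libraries, of which the short Sham LS 2 is one. The lower calls came to 329 members without the 3 short libraries (beside 4.87% of all windows), 129 without FT replicate 2 (beside 2.08%) and 204 with region as a random block (beside 2.74%). On equal-size lists 424 were lower (36.6%), beside 12.3%, and 52 higher (4.49%), beside 16.1%. Within classes of equal telencephalic occupancy, on full lists, the lower calls were 28.8% of members against 5.44% of other windows in 33 to 36 libraries, 33.2% against 3.5% in 37 to 40, and 37.3% against 4.63% in 41 to 44.

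The dentate gyrus, a hippocampal field dominated by densely packed granule cells, had 249 members higher (21.5%), beside 5.63% of all windows, and 99 lower (8.56%), beside 2.57%. The median difference was 12.1 points against 3.24, but on equal-size lists it was 0.45 against -1.24, while 343 members were called higher (29.6%), beside 13.2% of all windows, and 185 lower (16%), beside 14.3%. The higher calls thus stood above the background on both kinds of list, and the lower calls lay close to it on equal-size lists. The neocortex had 295 members higher (25.5%), beside 12.4% of all windows, and 93 lower (8.04%), beside 14.6%. On equal-size lists 353 were higher (30.5%), beside 21.8%, and 233 lower (20.1%), beside 26.9%. In the accumbens, where GABAergic spiny projection neurons predominate, 150 were higher (13%), beside 1.97%, and 184 lower (15.9%), beside 25.3%. On equal-size lists 376 were higher (32.5%), beside 14.2%, more than in any other subdivision, and 125 lower (10.8%), beside 20%. The median difference in the accumbens was then 4.26 points over members, against -1.67 over all windows.

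In the amygdala 54 were higher (4.67%), beside 2.09%, and 7 lower (0.605%), beside 0.235%. With the replicate number as a block these became 124, beside 3.93%, and 14, beside 0.354%, but with region as a random block they were 11, beside 0.3%, and 1, beside 0.0649%. On equal-size lists 118 were higher (10.2%), beside 8.87%, and 70 lower (6.05%), beside 3.58%. Without Sham replicate 1 the higher calls in the amygdala were 4 members (beside 0.119% of all windows), and without FT replicate 1 they were 3 (beside 0.0351%). Leaving out 1 pool brought the higher calls down to 163 in the neocortex (Sham replicate 1, beside 6.84% of all windows), 58 in the accumbens (FT replicate 1, beside 0.779%) and 121 in the dentate gyrus (Sham replicate 1, beside 2.16%).

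**Figure D4:**
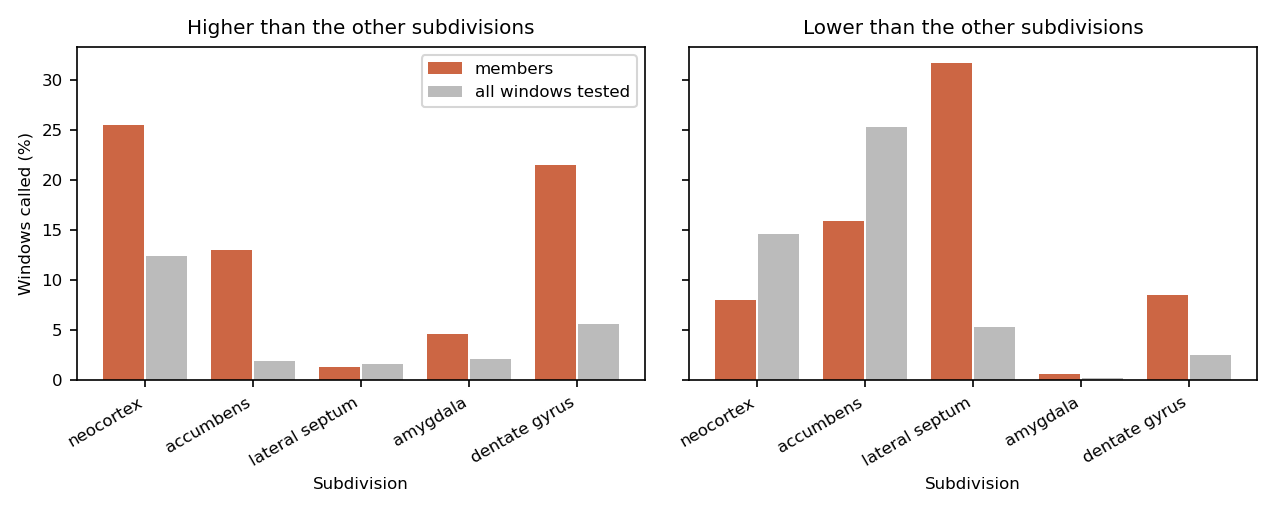
Percentage of the 1157 members (orange bars) and of all 36989 telencephalon-wide windows (grey bars) called higher (left) or lower (right) in each subdivision than the mean of the other 4 by limma on the rank level at an adjusted p under 0.05. The gap between members and background is 31.7% beside 5.34% in the lateral septum on the lower side and 13% beside 1.97% in the accumbens on the higher side.

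Calls overlapped in pairs of subdivisions. Of the 249 members higher in the dentate gyrus, 153 (61.4%) were lower in the lateral septum, against 32.8% of all 2082 windows higher in the dentate gyrus. In the accumbens 85 (34.1%) were lower, against 60.9%, and in the neocortex 88 (35.3%) were also higher, against 28.5%. The contrasts share libraries, so these shares are not independent and were not tested. Single windows show how far the levels can part inside the set.

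The neocortical window with the lowest p, chr8:129330001-129331000, had levels of 71.3 to 96.1 in the 16 neocortical libraries (median 91.6), 0 to 59.6 in accumbens (median 0), 0 in all 4 lateral septum libraries, 11.4 to 80.2 in amygdala (median 56.1) and 32.9 to 88.8 in dentate gyrus (median 72.6). Its difference was 55.0 ± 4.81 points (SE, limma, adjusted p = 8.76e-11). It was empty in all 28 libraries that the selection did not use. The second, chr4:150691001-150692000, had 70.8 to 96.0 in neocortex and 0 in lateral septum, and the third, chr2:203465001-203466000, had 17.5 to 92.8 in neocortex and at most 39.0 in accumbens. At chr8:129330001-129331000 and chr4:150691001-150692000 the neocortical libraries lay above all accumbens and lateral septum libraries but overlapped the amygdala. They also overlapped the dentate gyrus at chr8:129330001-129331000, whereas at chr4:150691001-150692000 the dentate gyrus reached only 70.38. At chr2:203465001-203466000 they overlapped the accumbens, amygdala and dentate gyrus, so only the lateral septum (at most 15.55) was separated there.

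The accumbens window with the lowest p, chr4:32238001-32239000, had 79.9 to 95.8 in the 8 accumbens libraries (median 90.5), 55.9 to 78.4 in lateral septum and 0 to 21.4 in dentate gyrus (limma, difference 43.2 ± 5.85 points, SE, adjusted p = 1.12e-06). This one was also occupied in 8 of 8 MS and BNST and 14 of 20 diencephalic libraries. At chr3:114116001-114117000 the dentate gyrus was at 0 in all 8 libraries while the accumbens ran from 66.0 to 93.6, and at chr18:17624001-17625000 the accumbens ran from 76.2 to 95.4 with a dentate gyrus median of 0. All 3 accumbens windows thus had accumbens levels above every dentate gyrus library. They overlapped the amygdala, however, which reached 90.73, 75.45 and 76.27 at the 3 windows in this order. At chr3:114116001-114117000 and chr18:17624001-17625000 the accumbens also overlapped the neocortex, which reached 67.93 and 83.29.

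The dentate gyrus windows were the mirror image with respect to the accumbens. At chr1:226071001-226072000 the 8 dentate gyrus libraries ran from 64.5 to 89.6 (median 77.8), all 8 accumbens libraries were at 0, and the difference was 51.7 ± 5.22 points (SE, limma, adjusted p = 8.78e-09). At chr6:59746001-59747000 the dentate gyrus ran from 66.8 to 94.3 and the 4 lateral septum libraries were at 0. At chr6:103356001-103357000 it ran from 70.4 to 90.8 against 0 to 21.3 in accumbens. At all 3 windows the dentate gyrus overlapped the neocortex, which reached 79.89, 80.19 and 72.85 in this order. At chr6:59746001-59747000 it also overlapped the amygdala, which reached 79.18.

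Windows higher in the lateral septum were few, and not all were separated from the other subdivisions. At chr7:33157001-33158000 the 4 lateral septum libraries ran from 66.5 to 79.2, above every other telencephalic library (highest 60.7, in neocortex), and the difference was 55.3 ± 8.64 points (SE, limma, adjusted p = 3.27e-05). At chr16:82071001-82072000 the lateral septum ran from 85.2 to 88.3 overlapping the accumbens (29.2 to 87.3), while the neocortex reached 71.2, the amygdala 62.7 and the dentate gyrus 34.4. At chr15:112228001-112229000 it ran from 70.9 to 85.2, but the neocortex reached 95.1, so only the accumbens (at most 20.8) was separated there.

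In the amygdala the leading window was chr5:152745001-152746000, with 36.1 to 89.3 in the 8 amygdala libraries (median 68.8) and a median of 0 in accumbens and lateral septum (limma, difference 47.6 ± 6.66 points, SE, adjusted p = 0.000138). It was also occupied in 17 of 20 diencephalic libraries. The next 2 were at 0 in all 4 lateral septum libraries but overlapped other subdivisions. At chr11:75682001-75683000 the amygdala ran from 36.2 to 58.5 (median 48.8), with 17.2 to 58.3 in dentate gyrus and 0 to 57.7 in neocortex. At chr4:190186001-190187000 the amygdala ran from 39.9 to 89.7 (median 75.3), and the neocortex, with 0 to 84.5, had the higher median (78.6).

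The last question was whether fluoxetine went with a change at the members, since the rule pools FT and Sham. In 9 of the 11 telencephalic regions both FT libraries had more members occupied than both Sham libraries, on full and on equal-size lists. The exceptions were InsularCortex and venDG. On equal-size lists the largest difference was in PLC, with 51.9% and 26.2% in Sham and 77.9% and 79.2% in FT, and the difference of means in InsularCortex was -0.3 percentage points. Of the 8099 pairs of a member and a telencephalic library without a peak, 83.1% were in Sham libraries and 32.2% in the 3 short ones, but for shared windows the Sham part was similar, at 81.1%.

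Fitted by limma with region as a covariate, the FT minus Sham rank level had a median of 23.0 points over the 1157 members and 9.88 over all 36989 windows tested. It was higher in FT for 1013 members (87.6%), beside 39.4% of all windows, and lower for 1 (0.0864%), beside 0.073%. On equal-size lists the median was 11.7 points over members and 0.31 over all windows, and 639 members were higher (55.2%), beside 11.4%. Fit and background both moved with single pools. Without FT replicate 2, 363 members were higher (31.4%), beside 3.31% of all windows. Without each of the other pools 903 to 1019 were higher (78.0% to 88.1%), beside 23.4% to 49.3%.

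Because members must lack peaks in few telencephalic libraries, they were also set beside windows of the same telencephalic occupancy that are not members. Among windows in 33 to 36 libraries, 89.3% of 569 members and 56.3% of the others were higher in FT. Among those in 37 to 40 libraries the shares were 89.4% of 395 and 47.4%, and among those in 41 to 44 they were 78.8% of 193 and 27.4%. On equal-size lists the same classes gave 47.6% and 11.3%, 63.0% and 11.3%, and 61.7% and 9.04%. The gap in share was thus present within each class. Members' median rank levels were below those of shared windows in all but 1 library, as given above, and the part of starting level in these shares was not tested.

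**Figure D5:**
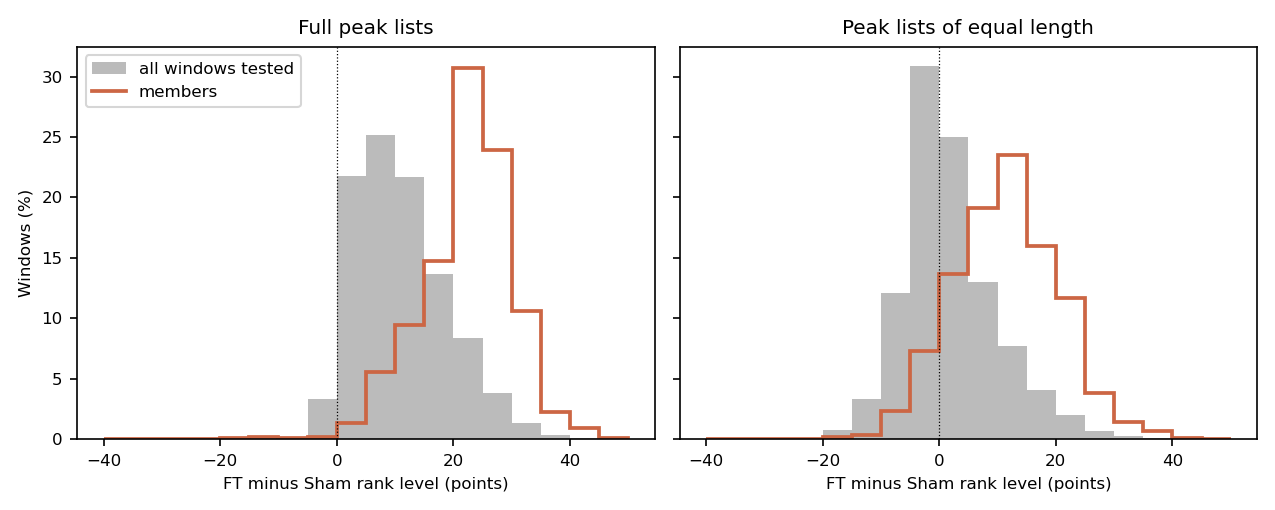
Distribution over windows of the FT minus Sham rank level in the 44 telencephalic libraries (points, limma with region as covariate) for the 1157 members (orange line) and all 36989 windows tested (grey), in bins of 5 points, on full lists (left) and equal-size lists (right). The member medians lie at 23.0 and 11.7 points and those of all windows at 9.88 and 0.31.

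The member with the lowest p was chr3:170847001-170848000. Its level ran from 0 to 66.7 in the 22 Sham libraries (median 0.87, 11 with a peak) and from 30.4 to 82.5 in the 22 FT libraries (median 63.2, all with a peak), with a difference of 39.3 ± 4.36 points (SE, limma, adjusted p = 6.54e-06). The Sham and FT ranges overlapped there and at the next 4, chr17:11866001-11867000, chr7:139542001-139543000, chr8:50675001-50676000 and chr16:26672001-26673000, with differences of 32.7 to 39.2 points and a peak in all 22 FT libraries each. The 1 member lower in FT, chr20:15228001-15229000, had a median of 41.3 in Sham and 24.5 in FT, with wide overlap (limma, difference -15.9 ± 6.21 points, SE, adjusted p = 0.0417).

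Taken region by region over the whole brain, fewer members passed. A sign test (exact, two-sided) across 24 regions on equal-size lists, adjusted over all 50029 windows tested, called 22 of 1081 members higher in FT (2.04%), beside 4.03% of all windows, and 0 lower, beside 0.154%. The 76 members not tested were occupied in under 10 equal-size libraries. The median difference in occupancy was 0.104 over the members tested and 0.0625 over all windows, and 89.0% and 71.2% lay above 0. On full lists the order was reversed, with 337 members called higher (29.1%), beside 17.7% of all windows. With Sham and FT libraries of the same replicate number compared as pairs on equal-size lists, 150 members were called (13.9%), beside 9.47%. That test had 45 pairs as units in place of 24 regions, so the counts are not on an equal footing. The count depended on single pools. It was 0 without Sham replicate 2, when no window of any kind was called, and 1 without FT replicate 1 (beside 1.03% of all windows). Without the 3 short libraries it was 7 (beside 1.96%).

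At chr19:45274001-45275000 the sign was positive in 13 regions and negative in 0 (sign test, exact, adjusted p = 0.0222), and 24 FT and 6 Sham equal-size libraries were occupied. At chr10:107461001-107462000 the sign was also positive in 13 regions and negative in 0, with 33 FT and 16 Sham libraries. In full lists its telencephalic level ran from 81.0 to 97.7 in FT, with a peak in all 22 libraries, and from 0 to 93.5 in Sham, with a peak in 13. At chr4:45657001-45658000, chr12:13879001-13880000 and chr19:45275001-45276000 the sign was positive in 12 regions and negative in 0. The brainstem regions add little to such a count, since members are nearly empty there by the rule.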

How the data were processed

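H3K27ac ChIP-seq peak lists of 94 libraries (47 Sham, 47 FT, 25 regions) were analysed. The submitters' processing notes name BWA and rn5, and the study's methods state that reads were aligned to Rn5 and peaks called with DFilter on each library. Their versions are not stated there. The authors deposited, per peak, a filter score and a tag-count score, a −log10 p-value and a false discovery rate as a percent. Only positions and the filter score, as a rank within its list, were used, together with the −log10 p-value in one alternative (6 or more). Depth is not part of the lists, so no counting interval was computed.

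Windows of 1000 bp were occupied at 500 bp or more of cover. Coordinates count from 1. Positions are given without gene names, since no Rn5 annotation was used here. The members and all tests were chosen with earlier results of these data known. Windows named are the 8 longest loci (ties by mean telencephalic occupancy), the lowest p values of each comparison (3 per subdivision, otherwise 5), and the first windows by position at each limit, with the clusters added after seeing counts. For Fisher's exact test the p values were those on equal-size lists.

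The tests were Fisher's exact test (windows with and without a peak in 3 or more of the 28 libraries each), an exact sign test over regions (10 or more of each), and limma 3.58.1 in R 4.3.3, all two-sided and adjusted by Benjamini-Hochberg over all windows tested (threshold 0.05). Python 3.11.15, numpy 2.4.6, pandas 2.3.3 and SciPy 1.17.1 were used, and the tests were tested on simulated data. Replicates are pools, and the main tests had no term for the pool. Fisher's test and limma took libraries as units and the sign test took regions, all from the same 4 pools. The p-values thus rest on the spread over libraries or regions and not on that between pools.

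The study's methods state that the Sham and FT samples of a replicate were handled side by side, so the numbers pair them. The Sham difference between replicates correlated with the FT difference, over telencephalon-wide windows, at -0.067 to 0.069 in the 11 telencephalic regions. Alternatives were the cover needed, equal-size lists, a grid moved by 500 bp, stricter shares, the replicate block, region as a random block, other region sets, leaving out each pool and, chosen after seeing the data, leaving out 3 libraries or comparing within occupancy classes.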

Additional observations from a re-analysis of the deposited data

Results flagged for a closer look

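The habenula was left out of the rule and of the comparisons of the report, and entered 1 alternative of the sign test between treatments. There 24 members were higher in FT (2.22%, beside 5.34% of all windows), and without the habenula 22 (2.04%, beside 4.03%). Its FT library was occupied at 41.3% of members on full and 8.82% on equal-size lists. The single Sham library of HB stood at 0.173% on full and 0.0864% on equal-size lists, but it covered 0.326% of the shared windows, so it gives no level to compare with. In the sign test the habenula could thus hardly be negative at a member, and nothing is read from the change from 22 to 24. The FT value lay within the range of the FT diencephalic libraries (26.3% to 77.2%).

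On equal-size lists both FT libraries of the raphe had fewer members occupied than both Sham libraries, with a difference of means of -0.13 percentage points, whereas 15 other regions showed the opposite order. The difference between regions was not tested, and the raphe shares were 0.173% or less in each library. With 2 libraries per treatment and region, a search for single libraries far from their group could not be made.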

How the results depend on the processing

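The number of windows kept by the rule depended on the definition. It was 1937 when 1 bp of cover sufficed, 522 at 900 bp and 138 at shares of 90% and 0%, and leaving out 1 pool gave 785 to 1447. Of the 1157 members, 362 (31.3%) were also kept on equal-size lists. Members higher in MS and BNST numbered 15 on equal-size lists and 11 without MPOA at the adjusted threshold (0 without any 1 pool). At an unadjusted p under 0.05 they numbered 184 on equal-size lists (beside 6.54% of all windows), 55 with MS alone (0.382%) and 130 to 303 without 1 pool (1.07% to 3.66%). Those lower numbered 1 (beside 5.2%), 0 (1.18%) and 0 to 3 (1.85% to 4.15%). In the sign test 337 members were higher on full lists (29.1%, beside 17.7% of all windows) and 150 with the replicate block (13.9%, beside 9.47%). There were 7 without the 3 short libraries (beside 1.96%) and 0 to 14 without 1 pool (beside 0.0% to 4.79%). Over the 11 telencephalic regions alone the sign test called 0 of 27139 windows. Its smallest possible p there is 0.000977, so that 0 says nothing on the members. The rank-level difference between treatments called 639 members higher and 3 lower on equal-size lists (beside 11.4% and 4.56% of all windows). Without 1 pool it called 363 to 1019 higher (beside 3.31% to 49.3%) and 0 to 1 lower (beside 0.0243% to 0.416%). On equal-size lists the subdivision calls became 233 lower in neocortex, 376 higher in accumbens, 52 higher in lateral septum, 118 higher and 70 lower in amygdala, and 185 lower in dentate gyrus, with the shares of all windows given beside them above. With the replicate block the amygdala had 124 higher and 14 lower, and besides these and the sign test the block moved no count of members by over 1.5 times. With region as a random block (correlation 0.096) 87 were higher in accumbens (7.52%, beside 1.03% of all windows) and 141 in dentate gyrus (12.2%, beside 2.71%). In lateral septum 9 were then higher (0.778%, beside 0.468%) and 204 lower (17.6%, beside 2.74%). In amygdala 11 were higher (0.951%, beside 0.3%) and 1 lower (0.0864%, beside 0.0649%). Without the 3 short libraries 482 were higher in neocortex (41.7%, beside 28.6% of all windows) and 305 lower in accumbens (26.4%, beside 50.6%). The lower calls were then 27 in amygdala (2.33%, beside 1.18%) and 164 in dentate gyrus (14.2%, beside 7.53%). Without 1 pool, neocortex had 163 to 418 higher (beside 6.13% to 23.8% of all windows) and 63 to 84 lower (beside 5.49% to 14.3%). Accumbens had 58 to 194 higher (0.779% to 2.76%) and 81 to 229 lower (9.13% to 43.6%). Lateral septum had 6 to 19 higher (0.36% to 2.72%) and 129 to 381 lower (2.08% to 5.85%). Amygdala had 3 to 91 higher (0.0351% to 4.1%) and 0 to 6 lower (0.0135% to 0.406%). Dentate gyrus had 121 to 201 higher (2.16% to 5.83%) and 39 to 165 lower (0.668% to 6.34%). Of 205 alternative values for the 26 windows named from limma or the sign test, 181 stayed past the threshold, 24 did not, and none changed sign. The 5 windows named from Fisher's exact test were chosen by their p on equal-size lists, so that they passed there was fixed by the choice. They passed under none of 9 other alternatives, and the main test on full lists called no window. The depth of the libraries is unknown, so a window without a peak may lie below what a list could show.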
